A study of Homo sapiens with 6 samples.

Results

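The SR and hnRNP splicing factors are described here by their messenger RNA levels in 1CT-A, a human colon epithelial line depleted of APC, and in its immortalized parent 1CT. The members are all entries of the 6 count files whose gene symbol is SRSF followed by digits, or begins with HNRNP, with pseudogenes and antisense RNAs left out. This gives 38 genes, 12 SRSF and 26 HNRNP, of the 24462 symbols in the files. The rule rests on gene symbols and uses no measured value, but it was chosen with earlier results of these data known.

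SR proteins carry an RNA recognition motif and a tail rich in arginine and serine repeats. They bind enhancer sequences in exons and help the spliceosome to include those exons. hnRNP proteins coat nascent transcripts, and many of them silence exons, so that the balance between the families is a classic determinant of exon choice. Members of both families also act in mRNA export, stability and translation, and SRSF1 and SRSF3 are known proto-oncoproteins.

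The study compared untreated cells grown in one medium with EGF, hydrocortisone, insulin, selenite, transferrin and 2% serum. The labels give the genotype of 3 libraries as WT (called 1CT here) and of 3 as APC KD (called 1CT-A here). They name neither separate cultures nor clones, so the p-values below measure the spread between these libraries, which may be technical, and whatever else separates the 2 cell lines cannot be told apart from APC depletion. Each library read the 3′ ends of polyadenylated RNA (QuantSeq), so the data measure gene levels and not exon choice. The libraries held 7788679 to 8452258 counts in 1CT and 11158108 to 12602988 in 1CT-A. Levels are given as CPM, the share of a library's counts scaled to a total of 1000000, after TMM normalization, a scaling that assumes that most genes do not change.

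APC itself was at 49.8, 44.2 and 47.8 CPM in 1CT and at 31.3, 29.5 and 33.9 CPM in 1CT-A, without overlap (log2 fold change -0.58 ± 0.09 SE, adjusted p = 0.000176 from edgeR's quasi-likelihood test, adjusted after Benjamini-Hochberg). Of 12 colon epithelial markers, only KRT18, KRT19 and CLDN7 passed the filter on low counts. Their summed level lay between 40.3 and 44.02 CPM in the 1CT libraries and between 23.4 and 28.9 CPM in those of 1CT-A, while EPCAM, CDX1, VIL1 and CLDN3 had no count in any library and CDX2 and KRT20 at most 1. The 12 fibroblast markers summed to between 6698 and 8557 CPM in 1CT and between 6120 and 6304 CPM in 1CT-A, and 4 of them were called higher and 5 lower. COL1A1 went from 1922 to 1280 CPM and COL3A1 from 48.4 to 250.3 CPM, so the sum hides members that moved in opposite directions. The 16 proliferation markers were all higher in 1CT-A, with a summed level between 2243 and 2472 CPM in 1CT and between 4292 and 4502 CPM in 1CT-A. Splicing factor levels moved in the same direction as these proliferation genes, and the part of the cell cycle in the results below was not tested.

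The splicing factors took up a larger share of the RNA in 1CT-A. Their share of all counts was 0.825%, 0.816% and 0.740% for 1CT and 1.24%, 1.27% and 1.27% for 1CT-A, without overlap. In bulk samples, fewer cells that express a gene and less RNA per cell cannot be told apart. On the TMM scale the 12 SRSF genes summed to 2108 ± 121 CPM (SD, n = 3) in 1CT and 3214 ± 48.0 CPM in 1CT-A, 1.52 times as much. The 25 HNRNP genes that passed the filter on low counts summed to 5943 ± 279.7 CPM and 9233 ± 35.4 CPM, 1.55 times as much. The SRSF sum was 35.0% to 36.2% of the HNRNP sum in 1CT and 34.4% to 35.2% in 1CT-A, and these ranges overlapped.

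Gene by gene, 28 of the 33 members with at least 10 counts in every library rose in 1CT-A (adjusted p below 0.05, edgeR's quasi-likelihood test) and none fell. Over all 11252 genes with that many counts, 26.2% were called higher and 23.9% lower. The median log2 fold change was 0.48 over the 33 members and 0.02 over all such genes. By family, 9 of 11 SRSF genes rose with a median of 0.40, and 19 of 22 HNRNP genes rose with a median of 0.54. In 29 of the 33 members every 1CT-A library lay above every 1CT library. Among all 11252 genes with that many counts, 30.5% showed that separation. Splicing factors are abundant, and 38.0% of the 1851 genes whose mean reached 100 CPM were called higher, more than over all genes. Among the members at that level 22 of 25 were called higher.

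The other members had few counts. SRSF12 and HNRNPCL1, HNRNPCL3 and HNRNPCL4 passed the filter only through the cell line in which they were higher, so their calls add nothing to these counts. With them, 37 members were tested, 31 were called higher and 1 lower, against 25.0% and 26.0% of all genes tested. HNRNPCL2 did not pass, with 0 to 1 counts in 1CT and 1 to 4 in 1CT-A. By the thresholds that the study's methods name, a fold of 2 or more and p below 0.01 before adjustment, 2 of the 33 members were called (HNRNPD and HNRNPH3), against 8.93% of the 11252 genes with at least 10 counts in every library and 13.4% of all genes tested.

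**Figure D1:**
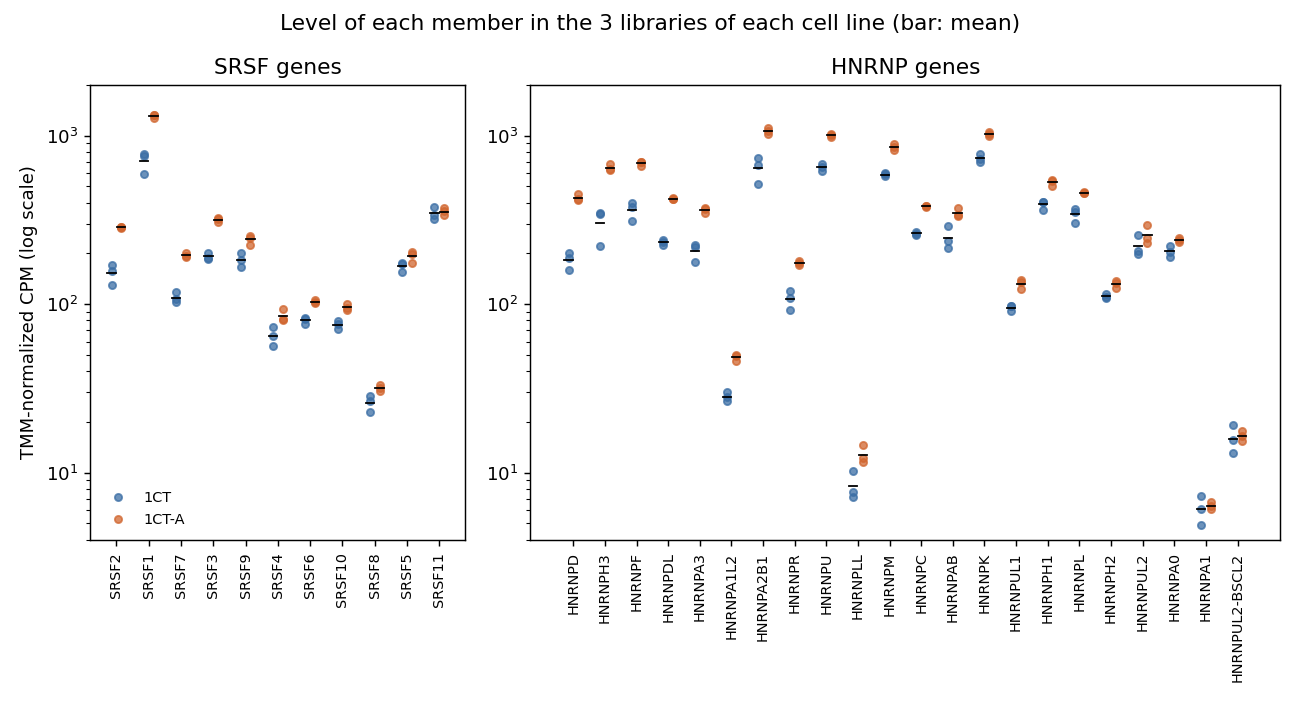
TMM-normalized CPM (log axis) of the 33 members with a mean of at least 5 CPM, in the 3 libraries of 1CT (blue) and of 1CT-A (orange), with bars at the means. The 2 sets of points are apart for most genes, such as HNRNPD at 159.5 to 201.2 against 412.3 to 451.4 CPM, and mixed for SRSF11, HNRNPA1, HNRNPUL2 and HNRNPUL2-BSCL2.

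Among the SR proteins, SRSF1 and SRSF2 showed the largest rises. SRSF1 (chr17:58000919-58007346 on GRCh38, minus strand), the founding SR protein, was at 773.4, 759.1 and 592.7 CPM in 1CT and at 1266, 1335 and 1326 CPM in 1CT-A. The 1CT-A libraries all lay above the highest 1CT library, and 1CT replicate 3 was the lowest. The log2 fold change was 0.89 ± 0.09 (SE, adjusted p = 4.0e-06, edgeR's quasi-likelihood test, as for every adjusted p below). SRSF2 (chr17:76734115-76737333, minus strand), which binds both purine-rich and pyrimidine-rich exonic enhancers, was at 157.8, 169.8 and 129.96 CPM in 1CT and at 284.0, 287.7 and 285.9 CPM in 1CT-A. Its log2 fold change was 0.91 ± 0.09 (adjusted p = 2.96e-06), again without overlap. In GENCODE release 44 the last 300 bases of SRSF2, SRSF9, HNRNPA3, HNRNPAB, HNRNPH3 and HNRNPUL1 are overlapped by a gene on the other strand, and those of SRSF1, SRSF6, HNRNPA1, HNRNPA1L2, HNRNPL, HNRNPUL2 and HNRNPUL2-BSCL2 by another gene on the same strand. The use of strand in counting is not given in the sources used here, so reads of these genes may be shared with their neighbours.

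SRSF3 and SRSF7, the closely related short SR proteins that also link splicing to mRNA export, both rose. SRSF3 went from 192.1 ± 8.32 CPM (SD, n = 3) to 317.2 ± 7.72 CPM, a log2 fold change of 0.72 ± 0.07 (SE, adjusted p = 1.62e-06). SRSF7 went from 109.3 ± 7.78 to 195.3 ± 5.55 CPM, a log2 fold change of 0.84 ± 0.07 (adjusted p = 1.29e-06). No 1CT library reached the level of any 1CT-A library for either gene.

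The remaining SRSF genes had smaller log2 fold changes. SRSF9, the close relative of SRSF1, rose by 0.40 ± 0.08 on the log2 scale (183.8 to 242.8 CPM, adjusted p = 0.00141). SRSF4 and SRSF6, long SR proteins with extended arginine-serine tails, rose by 0.40 ± 0.10 and 0.36 ± 0.07 (adjusted p = 0.00564 and 0.00127). SRSF8, a processed copy of SRSF2, rose by 0.29 ± 0.10 (adjusted p = 0.0307), a call that was lost in 6 of the 18 alternative settings. SRSF10, which represses splicing when it is dephosphorylated, was chosen after its values were seen and rose by 0.34 ± 0.08 (adjusted p = 0.00251).

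SRSF5 and SRSF11 were not called. SRSF5, an SR protein first described as an insulin-induced gene, was at 154.2, 172.7 and 176.5 CPM in 1CT and 203.9, 176.7 and 198.3 CPM in 1CT-A. The lowest 1CT-A library was almost level with the highest 1CT library, and the log2 fold change of 0.20 ± 0.08 just missed the threshold (adjusted p = 0.0508). SRSF11 (chr1:70205682-70253052, plus strand), named after its values were seen, is a distant member of the family. It was at 337.5, 319.8 and 378.7 CPM in 1CT and 371.6, 355.3 and 336.7 CPM in 1CT-A. These ranges overlapped, and the log2 fold change was 0.04 ± 0.08 (adjusted p = 0.699). SRSF11 took 16.5% ± 2.44 (SD, n = 3) of all SRSF counts in 1CT and 11.04% ± 0.71 in 1CT-A, while SRSF1 took 33.5% ± 2.97 and 40.7% ± 0.67.

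SRSF12 had fewer counts in 1CT-A than in 1CT. SRSF12 (chr6:89095959-89118071, minus strand) can antagonize other SR proteins in splicing. It had 14, 15 and 15 counts in 1CT and 1, 0 and 1 in 1CT-A. Over the 3 libraries of each line, 44 counts stood against 2, and the level in 1CT was 31.5 times that in 1CT-A (95% exact interval from 8.23 to 269, which covers counting error only).

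**Figure D2:**
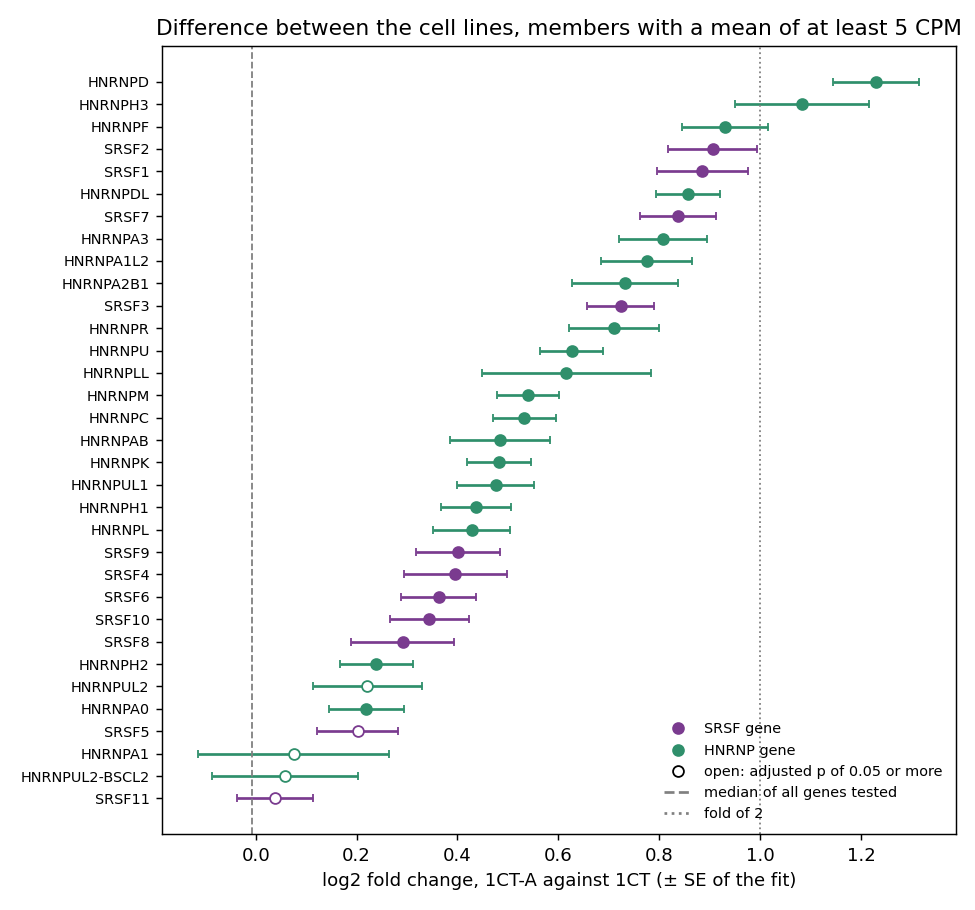
Log2 fold change between 1CT-A and 1CT (positive where 1CT-A is higher) with the SE of the fit (3 libraries each) for the 33 members with a mean of at least 5 CPM, SRSF genes in purple and HNRNP genes in green. The points run from 0.04 for SRSF11 to 1.23 for HNRNPD, all to the right of the median of all genes tested (dashed line), open points mark the 5 genes that were not called, and only HNRNPD and HNRNPH3 lie past a fold of 2 (dotted line).

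Among the hnRNP proteins the largest rise was that of HNRNPD. HNRNPD (chr4:82352498-82374503, minus strand), also known as AUF1, binds AU-rich elements and controls the decay of many short-lived mRNAs. It was at 187.4, 201.2 and 159.5 CPM in 1CT and at 412.3, 422.8 and 451.4 CPM in 1CT-A. Every 1CT-A library was more than 2-fold above every 1CT library (log2 fold change 1.23 ± 0.09 SE, adjusted p = 1.35e-07). Its neighbour and paralog HNRNPDL was at 233.9, 240.0 and 225.9 CPM in 1CT and 424.3, 422.3 and 420.8 CPM in 1CT-A. The libraries of each line were close to each other and far from those of the other line (0.86 ± 0.06, adjusted p = 2.27e-07).

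HNRNPH3 and HNRNPF belong to the group that binds runs of G in pre-mRNA. HNRNPH3 (chr10:68331174-68343193, plus strand) was at 348.9, 343.7 and 221.0 CPM in 1CT and at 635.6, 676.9 and 623.7 CPM in 1CT-A, so that 1CT replicate 3 stood well below the other 1CT libraries. Its log2 fold change was 1.08 ± 0.13 (adjusted p = 1.92e-05). HNRNPF went from 361.2 ± 45.4 to 688.5 ± 22.4 CPM (0.93 ± 0.09, adjusted p = 1.59e-06). The other genes of this group rose less, HNRNPH1 by 0.44 ± 0.07 (adjusted p = 0.000177) and HNRNPH2 by 0.24 ± 0.07 (adjusted p = 0.0138), the latter a call that was lost in 4 of the 18 alternative settings.

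The A/B group, which silences exons by binding UAGG-like elements, moved upward with the exception of the HNRNPA1 entry. HNRNPA2B1 was at 736.3, 668.8 and 513.7 CPM in 1CT and at 1104, 1016 and 1067 CPM in 1CT-A (0.73 ± 0.10, adjusted p = 7.48e-05). No values overlapped, and 1CT replicate 3 was again the lowest. HNRNPA3 went from 206.8 ± 26.1 to 362.0 ± 13.9 CPM (0.81 ± 0.09, adjusted p = 7.11e-06). HNRNPA1L2, an intronless copy of HNRNPA1, went from 28.3 ± 1.68 to 48.4 ± 2.38 CPM (0.77 ± 0.09, adjusted p = 1.35e-05).

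HNRNPA1 itself was listed with 51, 40 and 55 counts in 1CT and 68, 78 and 81 in 1CT-A. This is 6.07 ± 1.19 CPM against 6.38 ± 0.325 CPM, with overlapping values and a log2 fold change of 0.08 ± 0.19 (adjusted p = 0.761). These are low levels for HNRNPA1, known as an abundant nuclear protein. An entry that the choice of members leaves out, the processed pseudogene HNRNPA1P10, held 1165, 1139 and 852 counts in 1CT and 2347, 2470 and 2930 in 1CT-A, and was called higher (0.74 ± 0.09, adjusted p = 1.6e-05).

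Over the 962 bases of the pseudogene that align to the HNRNPA1 transcript, 4 differ (99.6% identity without gaps). Of all 31-base words of the HNRNPA1 coding sequence, 89.4% also occur elsewhere in the genome, and none of those in the last 300 bases of its canonical transcript do. Which of these genes the reads came from cannot be told from the counts. When the entries of HNRNPA1, HNRNPA1L2, HNRNPA1P10 and HNRNPA1P33 were added together, an alternative chosen after seeing the data, the sum was 1468, 1399 and 1122 counts in 1CT and 2973, 3133 and 3597 in 1CT-A, and the log2 fold change was 0.73 ± 0.08. Most of this sum came from HNRNPA1P10. The last 300 bases of some other members also hold 31-base words found elsewhere in the genome. The share of such words was 86.7% for HNRNPA1L2, 52.6% for HNRNPH1, 46.7% for SRSF9, 46.3% for HNRNPL, 44.4% for HNRNPA3 and 43.7% for HNRNPK. Reads of these entries may be shared with other places in the genome, which was not tested. HNRNPCL1, HNRNPCL3 and HNRNPCL4, copies of HNRNPC, had 2 to 6 counts in 1CT and 12 to 27 in 1CT-A. HNRNPCL3 and HNRNPCL4 had identical counts in every library, and every 31-base word in their last 300 bases occurs elsewhere in the genome, so their entries are not separate measurements.

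**Figure D3:**
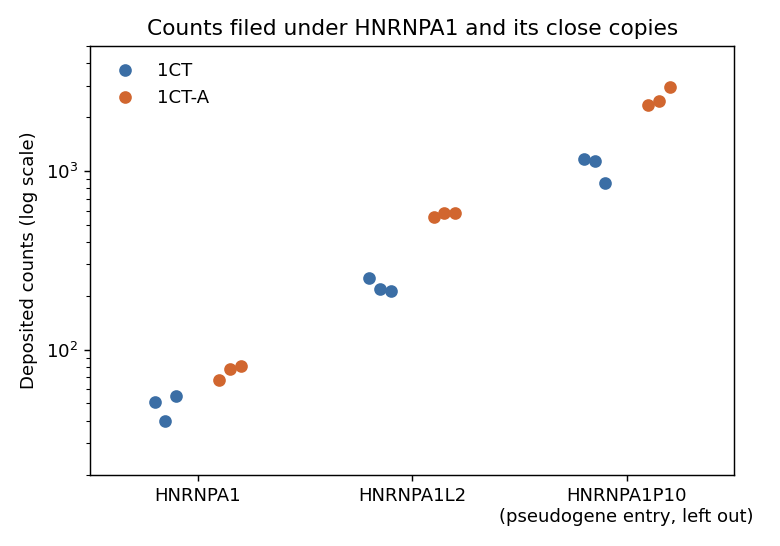
Deposited counts (log axis) under HNRNPA1, HNRNPA1L2 and the pseudogene entry HNRNPA1P10 in the 3 libraries of 1CT (blue) and of 1CT-A (orange), not scaled for library depth. The HNRNPA1 entry holds 40 to 81 counts per library, against 852 to 2930 for HNRNPA1P10.

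The other abundant hnRNP proteins had log2 fold changes below those of HNRNPA2B1. HNRNPU, the nuclear scaffold protein, went from 649.6 ± 31.7 CPM (SD, n = 3) to 1003 ± 17.7 CPM (0.63 ± 0.06, adjusted p = 3.44e-06). HNRNPC, which binds U tracts and keeps Alu sequences from being spliced in as exons, was at 268.9, 262.5 and 258.6 CPM in 1CT and at 377.4, 382.4 and 383.0 CPM in 1CT-A (0.53 ± 0.06, adjusted p = 1.26e-05). HNRNPK, which binds C-rich RNA and DNA, went from 733.5 ± 38.4 to 1025 ± 26.8 CPM (0.48 ± 0.06, adjusted p = 3.74e-05). In all 3 genes no library of 1CT reached the lowest 1CT-A library.

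HNRNPL, which binds CA repeats, rose by 0.43 ± 0.08 (adjusted p = 0.000448), and its paralog HNRNPLL, a regulator of CD45 splicing in lymphocytes, was at 8.33 ± 1.6 CPM in 1CT and 12.8 ± 1.65 CPM in 1CT-A (0.62 ± 0.17, adjusted p = 0.00787). HNRNPUL1, a relative of HNRNPU, rose by 0.48 ± 0.08 (adjusted p = 0.000192). HNRNPUL2 was at 198.0, 206.5 and 257.2 CPM in 1CT and 294.1, 229.1 and 247.9 CPM in 1CT-A. Its values overlapped and it was not called (0.22 ± 0.11, adjusted p = 0.105), but without 1CT replicate 3 it was (0.35 ± 0.09, adjusted p = 0.0025). The readthrough entry HNRNPUL2-BSCL2 shares exons with HNRNPUL2, but its last 300 bases are overlapped by BSCL2 on the same strand. It was at 15.9 ± 3.06 CPM in 1CT and 16.5 ± 1.13 CPM in 1CT-A (0.06 ± 0.14, adjusted p = 0.759). HNRNPA0, HNRNPAB, HNRNPM and HNRNPR, named here only to complete the family, were all called higher, with log2 fold changes from 0.22 to 0.71. The antisense entry HNRNPU-AS1, left out as a member, was also higher (0.28 ± 0.07, adjusted p = 0.00687).

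The spread between replicates was measured over the 25 members whose mean reached 100 CPM. The median coefficient of variation was 8.75% in 1CT and 3.83% in 1CT-A, against 7.03% and 3.94% over all genes at that level. 1CT replicate 3 was the lowest 1CT library in 17 of these 25 members, with a median log2 difference of -0.10 from the other 1CT libraries, while over all genes of that level it stood at 0.05. Without this library, 29 of the 33 members with at least 10 counts in every library were called higher in place of 28.

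The balance between related members was compared within libraries. The log2 ratio of the 2 genes of a pair does not depend on how libraries are scaled to each other, and 14 pairs were compared. In 11 of them the ratios of the 3 1CT and 3 1CT-A libraries did not overlap. Over all pairs of genes with a mean of at least 10 counts, 59.0% were separated in this way. That share is not matched to the level of the genes compared here, most of which are abundant. Some genes also stand in several of the 14 pairs. A separated pair has the smallest p that the exact permutation test of 3 against 3 libraries can give (p = 0.1, two-sided), or 0.13 after Benjamini-Hochberg adjustment over the 14 pairs, so no pair could pass 0.05 by this test. The log2 ratios of SRSF1 to SRSF9 were 1.94, 2.05 and 1.84 in 1CT and 2.49, 2.42 and 2.38 in 1CT-A, a difference of 0.49 that left the lines apart. The ratio of SRSF2 to SRSF8 was 0.62 higher in 1CT-A and that of HNRNPD to HNRNPDL 0.38 higher, without overlap. The ratio of HNRNPU to HNRNPUL2 was 0.41 higher, that to HNRNPUL1 0.15 higher, and that of HNRNPH1 to HNRNPH2 0.20 higher, again without overlap. Without 1CT replicate 3 the first of these differences was 0.26 and the one for HNRNPUL1 0.10, which was also its value without 1CT-A replicate 2.

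Other ratios were lower in 1CT-A or overlapped. The log2 ratio of SRSF3 to SRSF7 was 0.81 ± 0.04 (SD, n = 3) in 1CT and 0.70 ± 0.02 in 1CT-A, and that of SRSF5 to SRSF6 was 1.06 ± 0.04 and 0.90 ± 0.10, both without overlap. The difference for SRSF5 to SRSF6 was -0.16, or -0.11 without 1CT-A replicate 2. The ratios of SRSF4 to SRSF6, of HNRNPF to HNRNPH3 and of HNRNPL to HNRNPLL overlapped between the lines. The log2 ratio of SRSF1 to HNRNPA1, opposing factors in the choice of splice sites, differed by 0.81 between the lines, and those of HNRNPA1 to HNRNPA2B1 and to HNRNPA3 by -0.66 and -0.73, without overlap. Without 1CT replicate 3 these differences were 0.55, -0.38 and -0.49, in the same order. These 3 pairs use the HNRNPA1 entry, with the limit given above on reads shared with its copies.

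**Figure D4:**
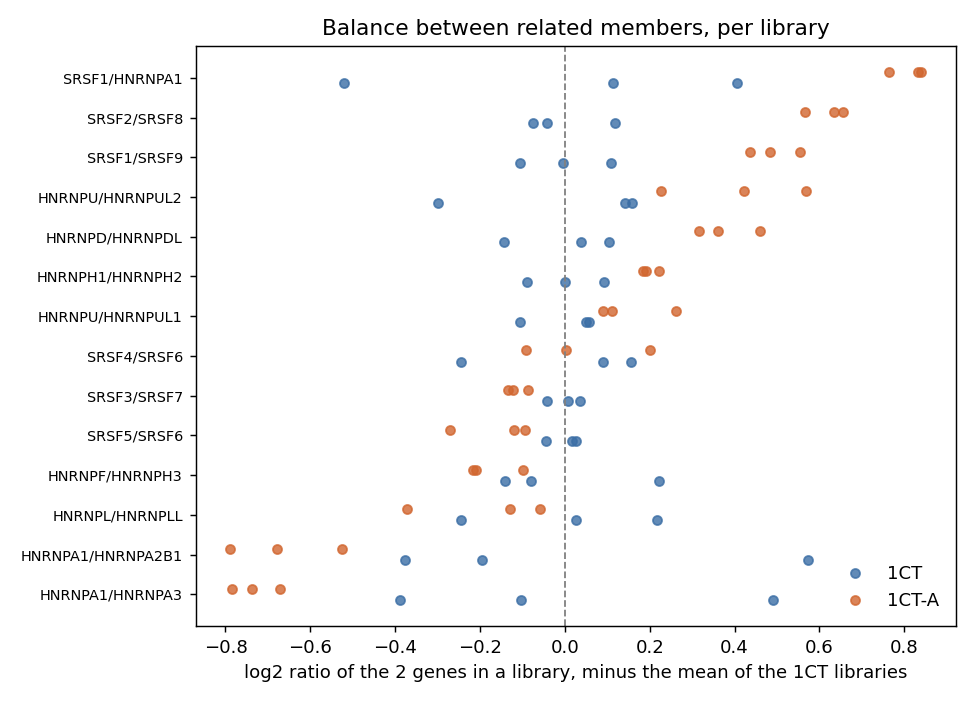
Log2 ratio of the 2 genes of each pair in each library, minus the mean of the 1CT libraries, for 1CT (blue) and 1CT-A (orange). The points of the lines are apart in 11 of the 14 pairs and overlap for SRSF4/SRSF6, HNRNPF/HNRNPH3 and HNRNPL/HNRNPLL. Of all gene pairs with a mean of at least 10 counts, not matched for level, 59.0% are apart.

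The promoters of the members were read from RefSeq (GRCh38.p14, 250 bases before to 50 after the start of each gene), where 35 of 38 members matched; HNRNPA1, HNRNPCL3 and SRSF2 were not in the table. RefSeq's start can differ from the GENCODE span given above, and the windows of SRSF11, HNRNPD and HNRNPH3 lie within those spans. Shown here are the 2 members with the largest rise among those with at least 10 counts in every library, HNRNPD and HNRNPH3, then SRSF1 and SRSF11, the latter as a member that was not called. Capitals mark every match to the 9 motifs searched on both strands, the E-box CACGTG, the CCAAT box, the GC box GGGCGG, the TATA motif TATAAA, the ETS motif CCGGAAGT, the E2F motifs TTTCCCGC and also TTTGGCGC, the NRF1 motif GCATGCGC and the YY1 motif AAGATGGCG. No 2 of these matches overlap in the promoters shown. They lie at chr4:82373942-82374241 (minus strand), chr10:68331443-68331742 (plus), chr17:58007197-58007496 (minus) and chr1:70221130-70221429 (plus).
HNRNPD: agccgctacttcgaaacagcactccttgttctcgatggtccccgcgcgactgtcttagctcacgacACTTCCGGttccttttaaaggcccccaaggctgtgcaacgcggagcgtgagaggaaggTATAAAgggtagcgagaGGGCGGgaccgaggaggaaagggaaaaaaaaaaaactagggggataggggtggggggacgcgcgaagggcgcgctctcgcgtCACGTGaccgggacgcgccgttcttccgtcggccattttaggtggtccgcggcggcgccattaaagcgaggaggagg
HNRNPH3: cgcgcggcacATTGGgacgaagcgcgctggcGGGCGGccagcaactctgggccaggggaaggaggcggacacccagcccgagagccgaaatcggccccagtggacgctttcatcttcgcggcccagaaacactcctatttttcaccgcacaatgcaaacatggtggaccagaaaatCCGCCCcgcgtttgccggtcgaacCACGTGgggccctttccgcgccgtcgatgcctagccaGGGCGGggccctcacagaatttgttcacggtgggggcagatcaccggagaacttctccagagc
SRSF1: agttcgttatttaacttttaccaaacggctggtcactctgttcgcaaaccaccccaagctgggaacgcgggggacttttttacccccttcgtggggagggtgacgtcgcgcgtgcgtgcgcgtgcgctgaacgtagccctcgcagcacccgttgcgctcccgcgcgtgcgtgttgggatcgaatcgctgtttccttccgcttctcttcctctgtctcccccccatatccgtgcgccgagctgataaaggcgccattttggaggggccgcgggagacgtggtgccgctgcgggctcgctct
SRSF11: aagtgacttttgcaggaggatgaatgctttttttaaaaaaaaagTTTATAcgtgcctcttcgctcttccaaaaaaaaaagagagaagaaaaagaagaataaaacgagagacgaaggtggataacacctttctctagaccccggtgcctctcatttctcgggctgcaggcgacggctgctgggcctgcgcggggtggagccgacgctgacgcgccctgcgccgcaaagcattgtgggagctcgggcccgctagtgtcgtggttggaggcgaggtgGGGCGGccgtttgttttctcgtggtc

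The HNRNPD and HNRNPH3 promoters both hold CACGTG, which MYC and USF proteins are known to bind, and both hold GGGCGG. The SRSF1 promoter holds none of the 9 motifs, and that of SRSF11 holds GGGCGG, and TATAAA on the opposite strand. CACGTG was found in 7 of the 35 member promoters (20.0%), namely those of HNRNPA3, HNRNPD, HNRNPDL, HNRNPH2, HNRNPH3, HNRNPM and HNRNPUL1. It stands in 7.26% of all 35116 promoters and in 10.3% of the 9331 promoters of genes tested here. CCAAT was found in 51.4% of member promoters, 34.6% of all and 37.0% of those tested, and GGGCGG in 62.9%, 45.0% and 70.5%. The members with CACGTG had log2 fold changes with a median of 0.81 (n = 7), from 0.24 for HNRNPH2 to 1.23 for HNRNPD. The other 27 members with a value and a promoter, which include SRSF12, HNRNPCL1 and HNRNPCL4, had a median of 0.48. Medians with and without a motif were 0.62 and 0.48 for CCAAT and 0.53 and 0.48 for TATAAA. For GGGCGG they were 0.48 and 0.63, and for CCGGAAGT 0.40 and 0.53. Each other motif was found in at most 2 of these members. A link between motif and level was not tested. A match describes the letters in this window and is no evidence that a factor binds there.

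Genes that work with SR and hnRNP proteins also rose in part, in lists that were likewise chosen with earlier results of these data known. The 8 lists of other splicing genes hold 153 genes that were tested. Of these 88 were called higher and 7 lower, with a median log2 fold change of 0.30. Over all genes tested the median was -0.01, with 25.0% called higher and 26.0% lower, shares that stand beside each list below. At a mean of 100 CPM or more, 45 of 65 list genes were called higher and 2 lower, against 38.0% higher over all genes of that level. Among partners of SR proteins, 5 of 9 rose and 1 fell. The largest rise was that of TRA2B, an SR-like activator of exons, from 108 ± 11.6 to 198 ± 1.48 CPM (0.87 ± 0.08, adjusted p = 2.2e-06). RNPS1, an adaptor of the exon junction complex, rose by 0.69 ± 0.07 (adjusted p = 3.18e-06), SRRM1 by 0.40 ± 0.07 and TRA2A by 0.34 ± 0.06. SRRM2, a large nuclear speckle protein named after its values were seen, was the gene that fell (-0.26 ± 0.07, adjusted p = 0.00998).

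Among the kinases, phosphatases and importers of SR proteins, 8 of 15 rose and 1 fell, with a median of 0.24. PPP1R8, a nuclear regulator of protein phosphatase 1, rose by 0.60 ± 0.12 (adjusted p = 0.000865), the phosphatase subunits PPP1CC and PPP1CB by 0.45 ± 0.08 and 0.44 ± 0.09, and the kinase CLK3 by 0.44 ± 0.11. CLK4, another kinase of SR proteins, fell from 8.13 ± 0.63 to 5.34 ± 1.16 CPM (-0.60 ± 0.19, adjusted p = 0.0188) and was named after its values were seen.

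In the list of hnRNP proteins under other symbols, which also holds related RNA-binding proteins such as ELAVL1 and CELF1, 12 of 16 rose and none fell, with a median of 0.37. ELAVL1, which stabilizes mRNAs with AU-rich elements, was at 109, 118 and 88.0 CPM in 1CT and 192, 211 and 245 CPM in 1CT-A (1.04 ± 0.11, adjusted p = 6.45e-06). SYNCRIP, also called hnRNP Q, rose by 0.82 ± 0.07, RBMX, also called hnRNP G, by 0.75 ± 0.08, and PCBP1, also called hnRNP E1, by 0.60 ± 0.09 (adjusted p = 5.12e-07, 9.17e-06 and 0.00017).

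Of 19 tested genes in a list of tissue splicing regulators, 6 rose and 3 fell, with a median of -0.07. The 6 are 31.6% of the list, against 25.0% called higher over all genes tested. QKI, which controls exon choice and circular RNA formation, rose from 340.4 ± 47.7 to 531.6 ± 13.7 CPM (0.64 ± 0.09, adjusted p = 6.37e-05), RBM10 by 0.43 ± 0.09 and TIAL1 by 0.43 ± 0.09. RBM3, a cold-inducible RNA binding protein, fell (-0.29 ± 0.07, adjusted p = 0.00252). CELF2, named like ESRP1 below after its values were seen, was at 12.9 ± 1.8 CPM in 1CT and 0.546 ± 0.35 CPM in 1CT-A, and passed the filter on low counts only through 1CT. Its call is among the 3 of this list and the 7 of all lists, and adds nothing to those counts. The epithelial regulator ESRP1 had 1 count in all 6 libraries together.

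**Figure D5:**
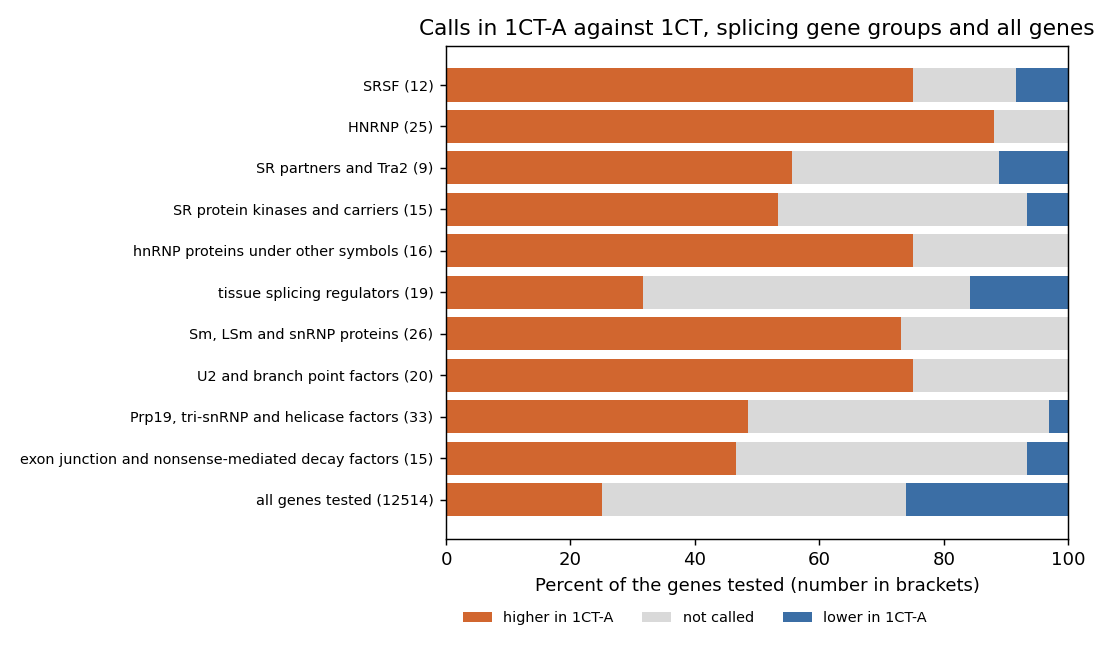
Percent of the tested genes (number in brackets) of each group that were called higher in 1CT-A (orange), not called (grey) or called lower (blue). The SRSF, HNRNP, other hnRNP and U2 groups have 75% or more of their genes called higher, against 25.0% of all genes tested. The SRSF and HNRNP bars include SRSF12, HNRNPCL1, HNRNPCL3 and HNRNPCL4, which passed the filter only through the cell line in which they were higher. The bar of tissue splicing regulators likewise includes CELF2, which passed only through 1CT. With at least 10 counts in every library, 9 of 11 SRSF and 19 of 22 HNRNP genes were called higher.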

How the data were processed

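The 6 libraries were sequenced on a NextSeq 500 from 500 ng of total RNA each. Per the labels, submitters' processing notes name hg19, Bowtie2 and edgeR, without versions. The counting tool, the annotation and the use of strand are not given in the sources used here. The authors deposited raw counts per gene symbol for each library, not normalized and not pooled. Entries of a repeated symbol were summed. Counts were fitted over the whole table with edgeR 4.0.16 in R 4.3.3: TMM, filterByExpr with a minimum count of 10, and the quasi-likelihood test between the lines, with no block and Benjamini-Hochberg adjustment over 12514 genes. CPM values are TMM-normalized unless given as shares of counts. The fit was tested on simulated data. Coordinates are from GENCODE release 44 on GRCh38, not the build of the counts.

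Genes named are the 14 members with the largest absolute log2 fold change of at least 0.5 among those called, 10 members and the genes of 14 pairs whatever their values, the 4 largest changes with a mean of at least 10 CPM in each splicing list, and copies of members with a mean of at least 10 CPM. Genes outside this rule are marked in the text. The members and lists were chosen with earlier results of these data known. Alternatives were other scalings and filters, DESeq2 1.42.0, limma-voom, a replicate block, thinning of 1CT-A to the mean depth of 1CT, each library left out in turn, and sums over copies.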

Additional observations from a re-analysis of the deposited data

How the results depend on the processing

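Across the 18 alternative settings, 25 to 30 of the 33 members with at least 10 counts in every library were called higher (28 as reported) and none lower, and their median log2 fold change stayed between 0.43 and 0.54. With upper-quartile normalization, which put the median of all genes at -0.06, 25 of them were called higher, and 30 without a filter. The number among all tested members at a fold of at least 2 and p under 0.01 was 6 without a filter in place of 3, and 2 to 4 with each library left out. The 3 are HNRNPD, HNRNPH3 and SRSF12, the last of which passed the filter only through 1CT. DESeq2 called 27 of the 33 higher. The replicate numbers of the labels did not pair the libraries (correlations of deviations between same-numbered libraries from -0.16 to 0.22). With a replicate block 28 of the 33 members were called higher and none lower, the same numbers as without it. With each library left out in turn, 26 to 29 of the 33 were called higher, and the log2 fold change ran from -0.058 to 0.22 for HNRNPA1 and from -0.063 to 0.22 for HNRNPUL2-BSCL2, both below 0 without 1CT replicate 2. The log2 difference in the ratio of SRSF4 to SRSF6 ran from -0.085 (without 1CT replicate 3) to 0.12. The cause was not tested. SRSF5 was called higher in 5 of the 18 settings. Depth limited SRSF12 and the HNRNPCL genes, which had fewer than 30 counts in every library.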

Other observations

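The genes of the core spliceosome, outside the SR and hnRNP families, are set beside all genes tested, of which 25.0% were called higher and, at a mean of 100 CPM or more, 38.0%. Of 26 Sm, LSm and snRNP proteins, which form the small nuclear ribonucleoprotein particles, 19 were called higher and none lower, with a median log2 fold change of 0.40. Their summed level lay between 4106 and 4330 CPM in 1CT and between 5826 and 5937 CPM in 1CT-A. LSM6, a subunit of the ring that binds U6 RNA, went from 8.87 ± 3.54 CPM (SD, n = 3) to 19.3 ± 4.15 CPM, and SNRNP40 of the U5 particle from 12.3 ± 2.67 to 23.7 ± 1.73 CPM. LSM2 and SNRPF rose by 0.80 ± 0.07 and 0.77 ± 0.09 (SE). Of 20 factors of the U2 particle and the branch point, 15 were called higher and none lower (median 0.42), led by RBM17 (0.89 ± 0.08), PHF5A (0.78 ± 0.09), U2AF1 (0.67 ± 0.06) and the helicase DDX39B (0.63 ± 0.10).

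The lists of Prp19, tri-snRNP and helicase factors and of exon junction and decay factors had lower medians. Of 33 tested Prp19, tri-snRNP and helicase factors, 16 were called higher and 1 lower, with a median of 0.18, but only 2 of the 8 at a mean of 100 CPM or more were called higher. PRPF19 rose from 174.6 ± 11.05 to 319.6 ± 27.7 CPM (0.87 ± 0.08). SART3, PRPF38A and PRPF4 rose by 0.72 ± 0.09, 0.64 ± 0.09 and 0.60 ± 0.12. Of 15 exon junction and nonsense-mediated decay factors, 7 were called higher and 1 lower, with a median of 0.26. At a mean of 100 CPM or more, 5 of 5 were called higher. The 4 largest changes among the 15 were all in core subunits of the exon junction complex: MAGOH (0.92 ± 0.11), EIF4A3 (0.75 ± 0.09), MAGOHB (0.73 ± 0.11) and RBM8A (0.62 ± 0.07).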
